A study of Rattus norvegicus with 2 samples.

Results

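Vascular endothelial cells are the cells that line blood vessels. In the cochlear duct of neonatal rats they were selected as kept cells with at least 1 UMI (unique molecular identifier, 1 per captured transcript) for at least 3 of 6 genes: Cldn5, Plvap, Cdh5, Kdr, Flt1 and Esam. A kept cell had 501 to 4999 genes and under 25% of its UMIs on mitochondrial genes. By this rule 166 of 12779 kept cells at postnatal day 1 (P1) and 194 of 12581 at P7 were endothelial, 360 of 25360 in all.

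The cells came from Sprague-Dawley rats for which no treatment is named, male and/or female by the study's methods. The cochlear ducts of many rats were pooled into 1 droplet library (10x Genomics, 3′ chemistry) per age, so there are 1 P1 library and 1 P7 library, and age and library cannot be told apart. The stria vascularis, spiral ligament and spiral ganglion, which carry much of the cochlea's blood supply, were separated by dissection, and red cells were lysed and dead cells removed before capture. The labels give the cell type of both libraries as greater epithelial ridge cell, which the 360 cells are not by their markers. With no replicate no test was run. Intervals are exact at the 95% level and cover counting error only, and cells are not replicates.

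As background, endothelial cells of the inner ear form the blood-labyrinth barrier. Tight junctions built on claudin-5 seal the cells to each other, and transporters of glucose, amino acids, organic anions and lipids take over the passage between blood and tissue. Immature and fenestrated vessels carry Plvap, the diaphragm protein of fenestrae and caveolae, and Wnt (Norrin), VEGF and Notch signals shape vessel growth and barrier formation after birth in the nervous system.

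The regions before the start sites of 4 of the selecting genes and of Tie1, the gene that stood furthest above the other cells, are shown because these genes mark the cells. Each is 300 bases, from 250 before to 50 after the start, from RefSeq on the GRCr8 build and 5′ to 3′ on the gene's strand. They lie at chr11:95718549-95718848 on the minus strand for Cldn5, the tight junction claudin, at chr16:18231230-18231529 on the minus strand for Plvap, at chr14:32571813-32572112 on the plus strand for Kdr, VEGF receptor 2, at chr12:12333180-12333479 on the plus strand for Flt1, VEGF receptor 1, and at chr5:137304932-137305231 on the minus strand for Tie1, an orphan receptor of the angiopoietin system. Capitals mark AGGAAG, a form bound by ETS factors, on either strand.
Cldn5: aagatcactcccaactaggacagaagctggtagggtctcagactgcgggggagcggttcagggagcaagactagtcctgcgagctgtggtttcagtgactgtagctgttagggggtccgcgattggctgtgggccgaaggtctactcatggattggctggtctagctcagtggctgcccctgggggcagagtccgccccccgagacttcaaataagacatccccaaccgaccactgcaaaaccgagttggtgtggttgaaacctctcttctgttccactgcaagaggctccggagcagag
Plvap: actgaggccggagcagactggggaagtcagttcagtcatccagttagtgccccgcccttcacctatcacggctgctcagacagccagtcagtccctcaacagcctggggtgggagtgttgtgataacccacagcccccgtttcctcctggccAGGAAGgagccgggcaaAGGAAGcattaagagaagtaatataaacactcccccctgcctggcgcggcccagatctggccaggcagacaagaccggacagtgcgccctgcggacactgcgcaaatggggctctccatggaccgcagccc
Kdr: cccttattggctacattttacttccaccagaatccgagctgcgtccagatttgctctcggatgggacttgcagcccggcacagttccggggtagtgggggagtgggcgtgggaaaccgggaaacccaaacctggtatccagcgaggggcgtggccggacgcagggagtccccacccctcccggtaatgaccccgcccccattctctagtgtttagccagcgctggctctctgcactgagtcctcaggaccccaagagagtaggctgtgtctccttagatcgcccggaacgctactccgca
Flt1: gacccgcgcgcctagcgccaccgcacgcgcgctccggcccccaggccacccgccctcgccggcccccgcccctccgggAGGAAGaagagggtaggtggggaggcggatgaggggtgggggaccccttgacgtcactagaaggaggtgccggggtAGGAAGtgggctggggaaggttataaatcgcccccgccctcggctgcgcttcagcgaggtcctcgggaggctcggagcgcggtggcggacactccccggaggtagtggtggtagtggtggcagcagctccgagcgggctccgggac
Tie1: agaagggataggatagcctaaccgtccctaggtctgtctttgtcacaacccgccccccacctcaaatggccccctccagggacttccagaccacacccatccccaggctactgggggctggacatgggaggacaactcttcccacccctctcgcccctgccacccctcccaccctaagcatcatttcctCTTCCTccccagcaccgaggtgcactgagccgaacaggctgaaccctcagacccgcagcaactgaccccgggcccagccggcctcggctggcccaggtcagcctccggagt
The motif was present in 2 of the 4 selecting genes shown, Plvap and Flt1, with 2 copies each. Of the 6 selecting and 15 leading genes, 13 had exactly 1 listed start, and 5 of these held the motif (38.5%). It was in 11549 of all 33469 promoters of this length (34.5%), and a match is a description of the letters, not of binding.

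Few kept cells lay just inside the threshold of the 6 selecting genes, and more lay just outside it. At P1 158 cells had a UMI for 2 of them, just outside the rule, 11 for 3, just inside, and 100 for all 6, and at P7 the numbers were 176, 21 and 110. These numbers describe the choice and support nothing. In 8 further endothelial genes that the choice did not use (Tie1, Egfl7, Clec14a, Ecscr, Cd93, Mmrn2, Icam2 and Sox17), 3 or more were found in 2.53% of the P1 cells with 2 selecting genes, in 27.3% of those with 3, in 68.8% with 4, in 97.4% with 5 and in 100% with 6. At P7 the shares were 5.11%, 42.9%, 84.2%, 100% and 99.1%. Cells at the threshold of 3 carried the further genes less often than cells with 5 or 6.

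**Figure D1:**
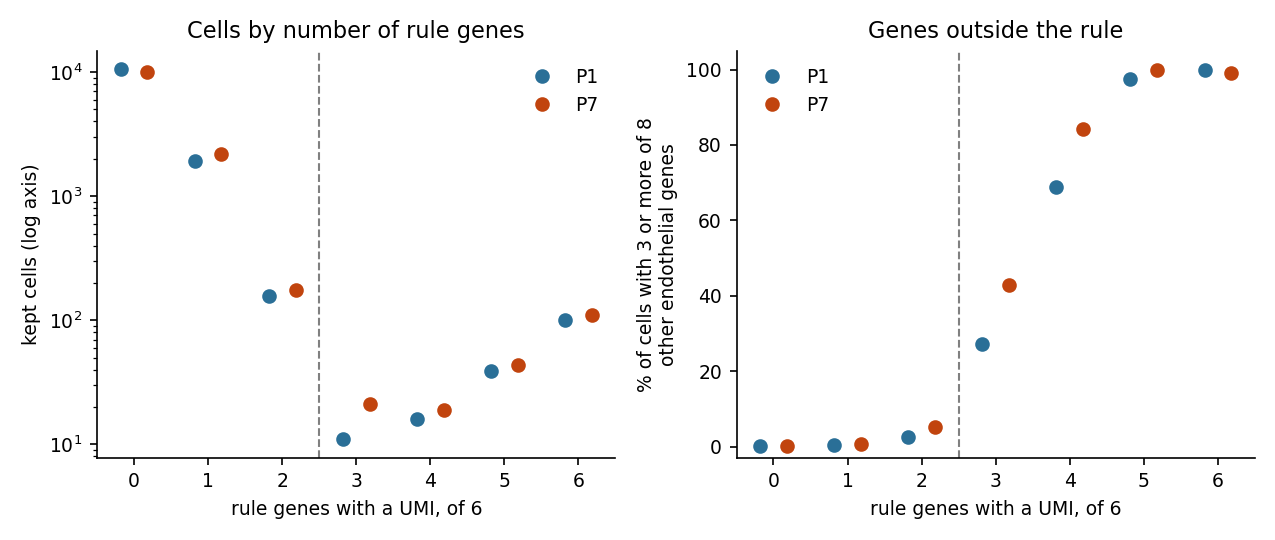
Kept cells by the number of the 6 selecting genes with a UMI (left, log axis) and the percent of those cells with 3 or more of 8 endothelial genes outside the rule (right), at P1 and P7, with the dashed line at the rule of 3. Cells with 2 or fewer selecting genes rarely carried the other genes (at most 5.11%), and cells with 5 or 6 nearly always did (at least 97.4%).

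Depth and mixing of the 360 cells were as follows. Their summed UMIs came to 1918347 (P1) and 1849414 (P7). The median cell had 9476.5 UMIs at P1 and 8177 at P7, above the 6554 and 6867 of the other kept cells. Scrublet called 22 of the P1 cells (13.3%) and 32 of the P7 cells (16.5%) doublets, against 4.87% and 6.16% of all kept cells. At least 3 of 7 glia markers were found in 8.43% of the endothelial cells at P1 and 37.6% at P7. In macrophages the shares were 14.6% and 58.7%, and in the other kept cells 27.8% and 69.7%. The markers include Dbi and Pmp22, which the paper describes as expressed in several clusters. At least 3 markers of pericytes were found in 2 and 14 cells, of macrophages in 3 and 6, and of epithelium in 0 and 0. Transcripts of genes named as haemoglobin chains (Hba and Hbb) made up 1.24% and 0.256% of the cells' UMIs. Of these UMIs, 14 and 6 cells with at least 20 of them held 99.4% and 95.5%. LOC103694857 and LOC689064, which have no gene name here, were not counted. Their levels differed between the ages in the same direction as those of Hba-a2 and Hbb. If they are haemoglobin genes, the shares given are too low. No barcode was shared between the P1 and P7 endothelial cells. At least 3 otic fibrocyte markers were found in 27.1% and 36.6% of the endothelial cells, and at least 3 mesenchyme markers in 11.4% and 16.0%. In the other kept cells the shares were 38.6% and 38.0%, and 43.2% and 56.8%. No cell was left out for these markers. Without doublets, cells with markers of glia, pericytes, macrophages or epithelium (another class below) and cells with haemoglobin, 121 and 103 cells remained. Calls of named genes that were lost when only those were used are mostly given beside the result.

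The endothelial share of the kept cells was 1.30% (1.11 to 1.51) at P1 and 1.54% (1.33 to 1.77) at P7. The ratio of P7 to P1 was 1.19 (0.960 to 1.47), so the difference was within counting error. Without the doubted cells the order turned, with 0.947% at P1 and 0.819% at P7. Doubted cells were left out of the endothelial cells here but not out of the kept cells, so these are not shares of cleaned libraries. Markers of another class were found in 19 endothelial cells at P1 and 80 at P7, those of glia in 14 and 73. The dissection bears on this share too, and its part was not tested.

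Of the genes used for the choice, Cldn5 had a median of 17 UMIs per cell at P1 (lowest 0, highest 175) and 18.5 at P7 (lowest 0, highest 120), or 2481 and 2448 CPM, the gene's share of the cells' summed UMIs on a common total. Plvap had medians of 7 and 9, with a highest value of 297 in 1 P1 cell and 62 at P7. Cdh5 (VE-cadherin), the adhesion protein of endothelial junctions, stood at 580 and 568 CPM. When each gene was read in cells chosen by the other 5, Plvap was 1.25-fold (1.18 to 1.32) and Esam, an endothelial adhesion molecule, 1.37-fold (1.25 to 1.51) as high at P7 as at P1. Kdr and Flt1 were 0.873-fold (0.781 to 0.976) and 0.826-fold (0.738 to 0.925). Cldn5 and Cdh5 were 0.985-fold (0.945 to 1.03) and 0.989-fold (0.907 to 1.08), so their intervals include no change. Plvap and Esam had intervals above 1, and Kdr and Flt1 below it.

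The genes that stood furthest above the other kept cells of the same library were nearly all known endothelial genes. Since the cells were chosen on their counts, this describes them and no test was made. The 15 leading genes outside the rule were Tie1, Clec14a, Adgrf5, Cyyr1, Egfl7, Slc2a1, Sox17, Cd93, Icam2, RGD1310587, Anxa3, Podxl, Adgrl4, RGD1565166 and Mmrn2. Tie1 had 375 CPM (348 to 404) at P1 and 446 (416 to 477) at P7, against 0.645 and 0.997 in the other cells. Sox17, a transcription factor of arterial endothelium, had 190 and 285 CPM against 0.333 and 0.340. Slc2a1, the glucose transporter GLUT1 of barrier endothelium, had 481 CPM (450 to 513) and 660 (623 to 698), which was 59.1-fold and 65.9-fold above the other cells. GLUT1 was found in 134 of 166 cells at P1 and 157 of 194 at P7, and in 4.46% and 2.88% of macrophages at median depths of 7742 and 7344 UMIs. Of 27 endothelial identity genes measured outside the rule, all 27 were above the other cells at both ages.

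Between the ages a gene was called where its CPM differed at least 2-fold on the log2(CPM + 5) scale, a scale that understates the change of low genes. Of 6558 genes with at least 50 UMIs over both libraries, 385 were higher at P7 (5.87%) and 197 lower (3.0%). Counts of calls in the gene lists below are to be read beside these shares. The median log2 difference of all genes was 0.11 in the endothelial cells and 0.10 in the other kept cells, and changes are to be read against these values. With scaling by the median ratio over genes, the split became 277 higher and 272 lower. Without the doubted cells it was 202 and 201 of 4588 genes measured. Of the 385 genes, 149 were also called higher in the other cells and 193 were above the other cells at P7. Of the 197, 81 were also called lower and 7 called higher in the other cells.

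**Figure D2:**
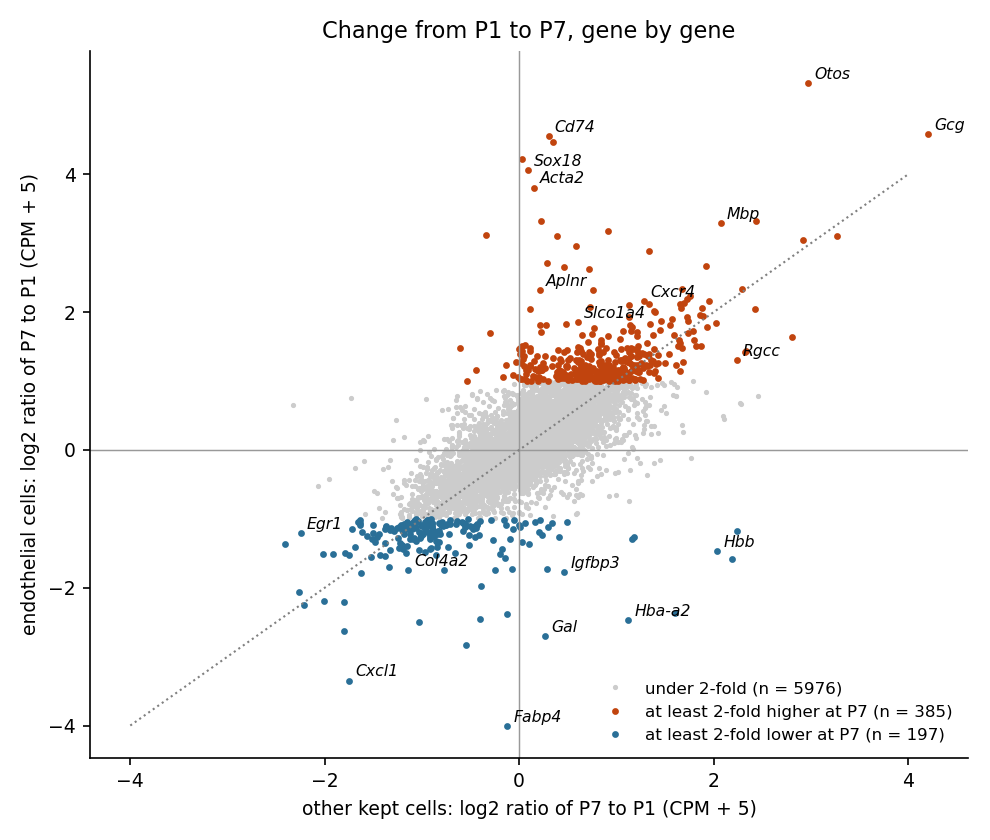
Log2 ratio of P7 to P1 (CPM + 5) of 6558 genes in endothelial cells (vertical) against the other kept cells (horizontal), with called genes in colour and the dotted line at equal change. Sox18 and Aplnr rose in endothelial cells with the other cells near 0, Mbp and Gcg rose in both, and the haemoglobin genes Hba-a2 and Hbb were lower in endothelial cells and higher in the others.

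Among the identity genes and receptors, Sox18 and Aplnr rose over many cells. Sox18, a SoxF transcription factor of vascular and lymphatic development, had 11 UMIs in 10 of 166 cells at P1 and 323 UMIs in 119 of 194 at P7. This was 5.73 CPM (2.86 to 10.3) and 175 CPM (156 to 195), a 30.5-fold rise (16.8 to 61.6). It was at 0.0208 and 0.340 CPM in the other cells and in 0% of macrophages at both ages. Thinned to 2000 UMIs per cell, 1.31% of the P1 cells and 28.7% of the P7 cells had a Sox18 UMI, and the rise was 27.4-fold without the doubted cells. The few UMIs in the other cells also differed, by 16.3-fold on the linear scale, at no more than 0.340 CPM. The related SoxF genes Sox17 (log2 difference 0.57) and Sox7 (0.28) were not called.

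Aplnr, the apelin receptor of venous and growing endothelium, went from 56.3 CPM in 60 cells to 301 CPM in 146 cells, a 5.34-fold rise (4.34 to 6.62). In the other cells it was 5.21-fold higher at P7, at 0.198 and 1.03 CPM. Its ligand Apln, a tip cell gene, was 117 and 175 CPM and not called. Egfl7, a secreted endothelial factor, rose 2.05-fold (1.88 to 2.24), from 413 to 847 CPM. Both rises held without the doubted cells (5.56-fold and 2.30-fold). In all, 2 of 27 identity genes rose and 0 fell, near the 5.87% and 3.0% of all genes measured. Their median log2 difference was 0.26.

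Genes of the arterial, Notch and tip cell lists rose in part. Of 9 arterial genes measured 3 rose, of 8 Notch pathway genes 2, and of 13 VEGF and tip cell genes 3, with 1 that fell. The lists share genes, so these are not separate rises. Dll4 and Jag1 were counted in both the arterial and Notch lists, Cxcr4 in the arterial and tip cell lists, and Aplnr in the tip cell and venous lists. Of all genes measured 5.87% rose and 3.0% fell. Dll4, the Notch ligand of arterial and tip cells, rose 2.73-fold (1.89 to 4.02), from 21.4 CPM in 35 cells to 58.4 CPM in 71, with 0.177 and 0.263 CPM in the other cells. Jag1, another Notch ligand, rose 2.18-fold (1.58 to 3.05), but in the other cells it was 2.39-fold higher at P7, and without the doubted cells its log2 difference was 0.88, short of a call. The arterial genes called were then Gja4, Dll4 and Cxcr4, and the Notch genes Dll4 and Hes1. Cxcr4, a chemokine receptor of tip and arterial cells, rose 6.55-fold (3.84 to 11.9), from 8.34 CPM in 12 cells to 54.6 CPM in 56, beside a 4.98-fold difference in the other cells. Pdgfb, the signal that recruits pericytes, rose 2.41-fold (1.88 to 3.11), from 48.5 to 117 CPM, beside 3.42-fold at 0.458 and 1.57 CPM in the other cells. Among venous genes Ephb4, the receptor of ephrin-B2, rose 2.24-fold (1.71 to 2.95) beside 2.21-fold in the other cells, while Vwf (von Willebrand factor) stood at 125 and 71.9 CPM and Nr2f2, a venous transcription factor, at 67.8 and 49.7 CPM, neither called. With Aplnr, 2 of 9 venous genes rose and 0 fell.

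Barrier transporters rose in part. Of 14 measured, 5 rose and 0 fell, where 5.87% and 3.0% of all genes did. Their median log2 difference was 0.85 against 0.52 for the same genes in the other cells. Slco1a4, an organic anion transporter of brain vessels, went from 38.1 CPM in 33 cells to 150 CPM in 91 cells, a 3.95-fold rise (3.04 to 5.18). Mfsd2a, the lysolipid transporter that also limits transcytosis, went from 33.4 CPM in 27 cells to 95.2 CPM in 60, a 2.85-fold rise (2.13 to 3.86) that was 2.03-fold, short of a call, without the doubted cells. In the other cells Mfsd2a was 6.02-fold higher at P7, at 0.905 and 5.45 CPM. Slco2b1, another organic anion transporter, rose 2.64-fold (2.01 to 3.51), and was found in 29.5% and 49.0% of endothelial cells against 38.2% and 57.2% of macrophages. The cationic amino acid transporter Slc7a1 rose 2.16-fold (1.65 to 2.85) and Lrp1, a scavenger receptor, 2.51-fold (1.78 to 3.59) at levels below those of the other cells. Slc7a5, the large neutral amino acid transporter, was 204 and 384 CPM, and Slco1c1, a carrier of thyroid hormone, 90.2 and 166 CPM, both short of the call. Abcg2, an efflux pump, was the exception in direction, with 348 CPM at P1 and 172 at P7, just short of a call at a log2 difference of -0.99. Without the doubted cells 5 of 11 rose, with Slc7a5 and Slc6a6 in place of Mfsd2a and Lrp1.

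Junction and caveolar genes showed no calls. None of 15 cell junction genes measured rose or fell at 2-fold, where 5.87% and 3.0% of all genes did. The junction genes' median log2 difference was 0.00. Tjp1 (ZO-1), the scaffold of tight junctions, was 115 and 183 CPM, and Ocln (occludin) 50.6 and 48.1 CPM. None of 8 caveolae and fenestrae genes was called either, with Cav1 (caveolin-1) at 545 and 601 CPM and Cavin2 at 451 and 242 CPM.

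Of 15 Wnt and Norrin pathway genes measured 5 rose and 0 fell, where 5.87% and 3.0% of all genes did. Their median log2 difference was 0.77 against 0.05 in the other cells. Lrp5, the Norrin co-receptor, rose 6.02-fold (3.05 to 13.2), from 5.21 CPM in 9 cells to 31.4 CPM in 43, beside 4.09-fold in the other cells. Foxq1, a forkhead factor of barrier vessels, rose 2.37-fold (1.58 to 3.64), from 18.2 to 43.3 CPM, with 7.21 and 7.08 CPM in the other cells. Reck, the partner of the Wnt7 receptor, rose 4.25-fold (2.09 to 9.52), and Tnfrsf19 2.69-fold (1.70 to 4.36), both below the other cells in level. Tnfrsf19 had a log2 difference of 0.83 without the doubted cells. Notum, a Wnt deacylase, rested on 3 and 13 cells, with 21 of its 44 P7 UMIs in 1 cell. Its P7 share of cells (6.70%) was below that of macrophages (11.1%), and the part of other cells' RNA was not tested. The Norrin receptor Fzd4 was 52.6 and 54.1 CPM, and its helper Tspan12 67.2 and 138 CPM, short of a call. Without the doubted cells 8 of these genes reached 50 UMIs, and Foxq1 and Fzd6 rose. Lrp5 (8.77-fold) and Reck (4.13-fold) then had fewer than 50 UMIs and were not called. Notum had a log2 difference of 0.60 and was not called either.

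**Figure D3:**
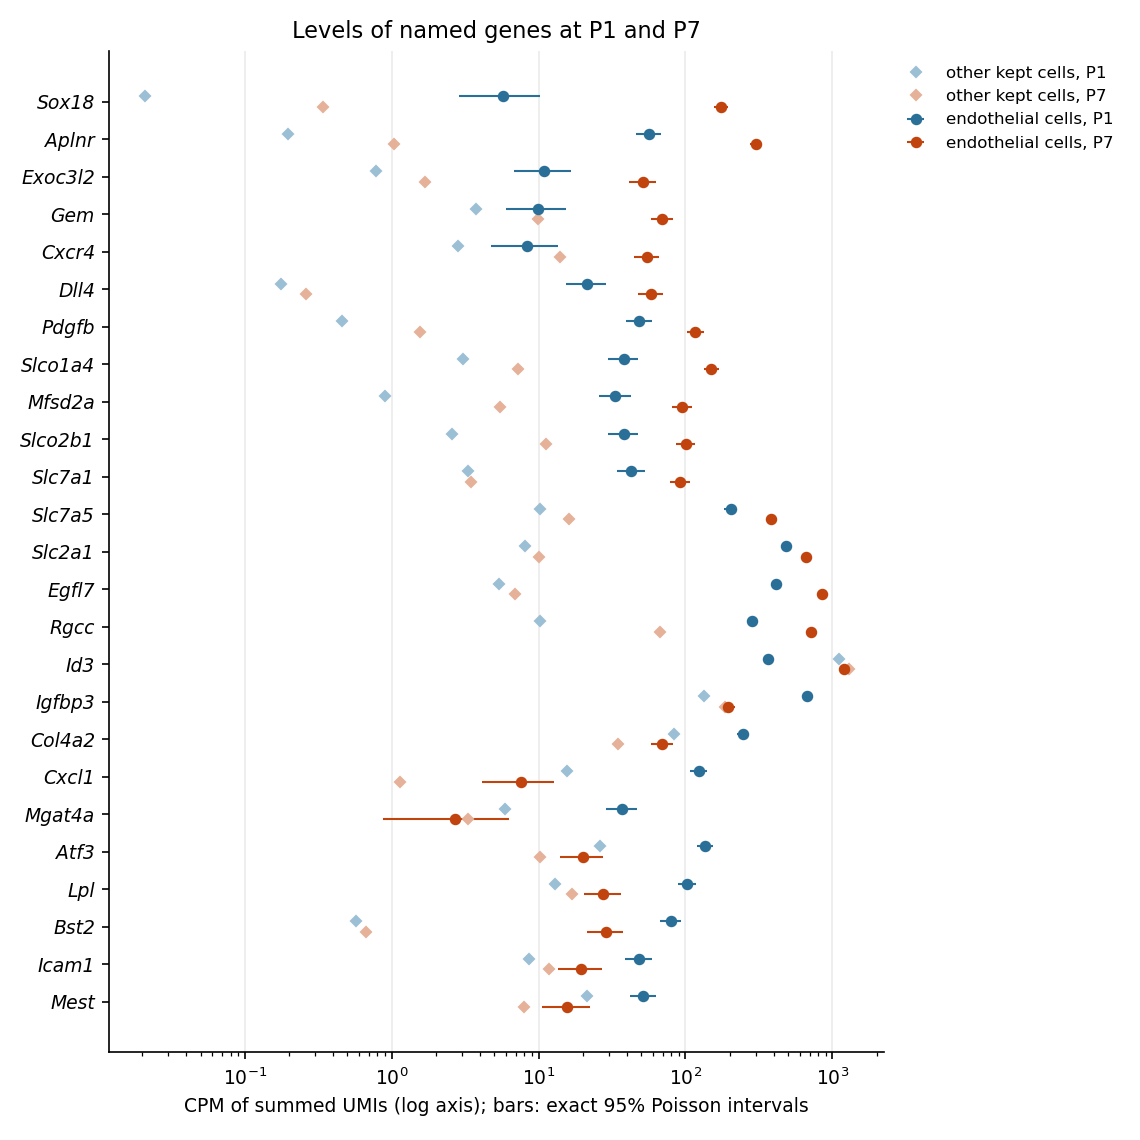
CPM (log axis) of 25 named genes in endothelial cells (circles, exact 95% Poisson intervals) and in the other kept cells (diamonds) at P1 and P7. Sox18 moved from 5.73 to 175 CPM and Aplnr from 56.3 to 301 CPM, both far above the other cells, whereas Igfbp3 fell from 677 to 195 CPM, to the level of the other cells.

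Other rises included Id3, a target of BMP signals, which went 3.31-fold up (3.04 to 3.61), from 363 to 1203 CPM, while it was 1108 and 1294 CPM in the other cells. It was the 1 gene of 14 in the TGF-beta and BMP list that was called, where 5.87% of all genes rose and 3.0% fell. Rgcc, a cell cycle regulator found in capillary endothelium, rose from 285 to 713 CPM, a log2 difference of 1.31, beside 6.54-fold at lower levels in the other cells. Gem, a small GTPase, rose 7.04-fold (4.33 to 12.1), from 19 to 68 cells, and Exoc3l2 4.69-fold (2.90 to 7.93), from 18 to 57 cells. Gem and Exoc3l2 were chosen after their values were seen. LOC100360791 rose 12.0-fold (8.77 to 16.9), beside 5.99-fold in the other cells, and was found in 67.0% of endothelial cells and 63.0% of macrophages at P7.

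Among the falls, Igfbp3, an IGF-binding protein induced in growing vessels, went from 677 CPM (640 to 715) in 123 cells to 195 CPM (175 to 216) in 94 cells, 3.48-fold lower (3.09 to 3.92). At P7 it was found in 48.5% of endothelial cells and 63.0% of macrophages, while at P1 the shares were 74.1% and 51.0%. The part of other cells' RNA in the P7 level of Igfbp3 was not tested. Col4a2, a chain of the vascular basement membrane, was 3.51-fold lower (2.88 to 4.30), from 245 CPM in 121 cells to 69.8 CPM in 75, beside 2.38-fold in the other cells. Its partner chain Col4a1 was 1687 and 1060 CPM, a 1.59-fold difference that was not called, and of 13 basement membrane genes Col4a2 alone passed. Of all genes measured 3.0% fell and 5.87% rose. Lpl (lipoprotein lipase) was 3.74-fold lower (2.74 to 5.20), from 103 to 27.6 CPM, whereas its anchor Gpihbp1 was 32.3 and 30.8 CPM. Apoe rose 2.02-fold (1.96 to 2.09) beside 2.19-fold in the other cells, and Angptl4, an inhibitor of lipoprotein lipase, 2.40-fold (1.76 to 3.29) beside 3.43-fold.

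Leukocyte adhesion genes gave 2 falls and 0 rises of 8, where 3.0% of all genes fell and 5.87% rose. Cxcl1, a neutrophil chemokine, was 16.3-fold lower (9.50 to 30.2), from 123 CPM in 54 cells to 7.57 CPM in 12, beside 13.7-fold in the other cells. At P1 it was found in 32.5% of endothelial cells and 31.8% of macrophages. Icam1, the adhesion molecule for leukocytes, was 2.46-fold lower (1.66 to 3.73), whereas it was 8.60 and 11.7 CPM in the other cells. Bst2, an interferon-induced surface protein, was 2.78-fold lower (2.02 to 3.88), from 79.8 CPM in 88 cells to 28.7 CPM in 46, with 0.572 and 0.669 CPM in the other cells.

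Immediate early genes, which respond within minutes to stimulation and also to dissociation, fell in 6 of 12 and rose in 0. Of all genes measured 3.0% fell and 5.87% rose. The immediate early calls and those of the imprinted list below are to be read beside these shares. The median log2 difference of the immediate early genes was -0.98, and -0.96 in the other cells. Jun was 2.40-fold (2.21 to 2.61) and Fos 2.24-fold (2.02 to 2.48) lower at P7, beside 1.85-fold and 3.32-fold in the other cells. Fos (log2 difference -0.81) and Egr1 (-0.97) were not called without the doubted cells, and the 5 that fell were Fosb, Jun, Junb, Ier2 and Atf3. Atf3, a stress-induced factor, was 6.77-fold lower (4.79 to 9.84), from 76 cells to 27. Klf9, a target of glucocorticoid and thyroid hormone, was 2.40-fold lower (2.05 to 2.80), Zbtb16 13.1-fold (6.11 to 33.4) and the metallothionein Mt2A 10.2-fold (6.30 to 17.6). Mgat4a, a glycosyltransferase, was 13.7-fold lower, from 47 cells to 5. Among imprinted and IGF growth genes Igfbp3, Mest (3.29-fold, 2.16 to 5.17) and Plagl1 (2.43-fold, 1.56 to 3.87) fell and Peg3 rose, of 13 measured. The Peg3 difference was 1.34-fold without the doubted cells, a log2 difference of 0.31 that was not called, and with doublets alone removed the log2 difference was 0.74.

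**Figure D4:**
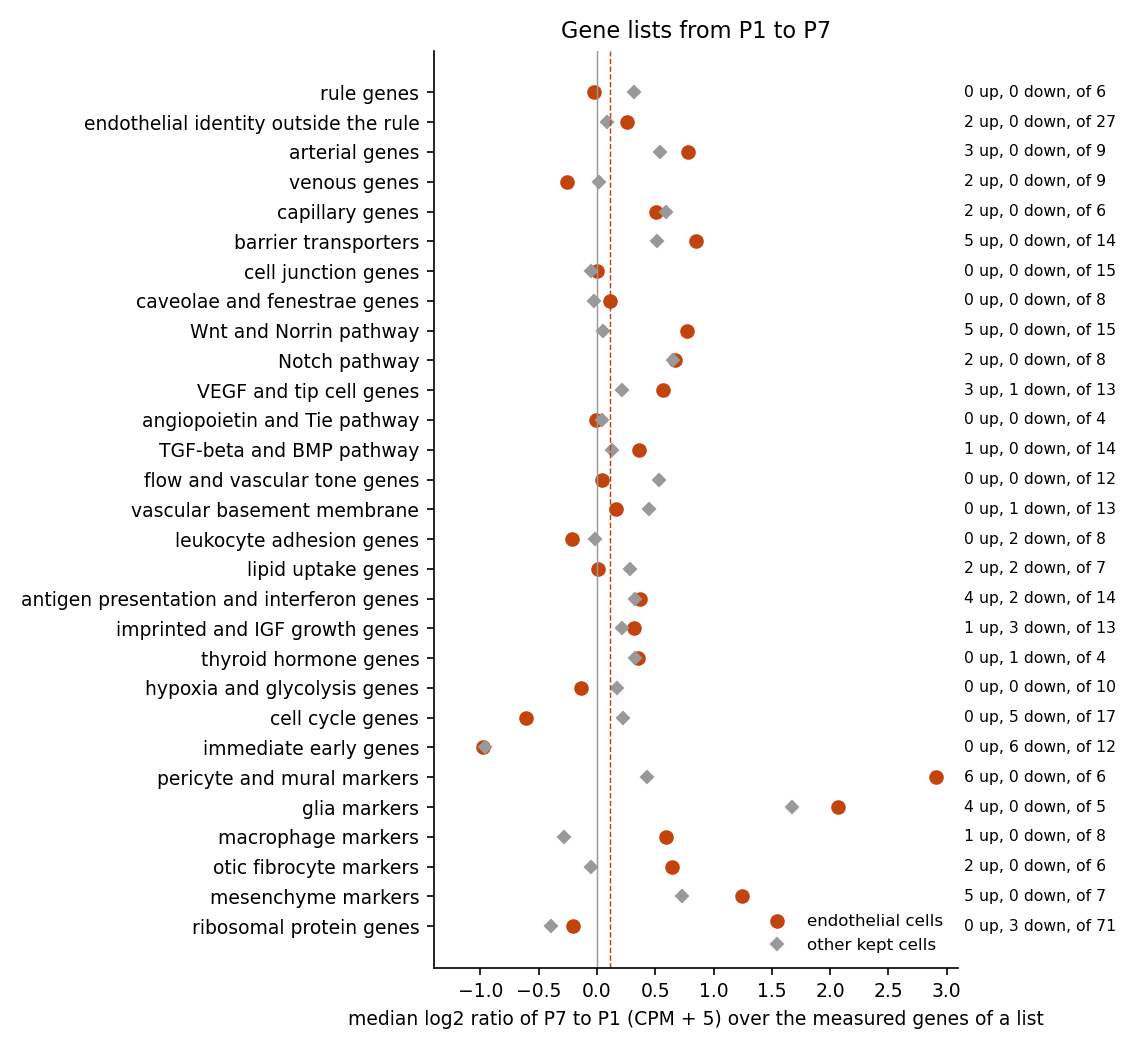
Median log2 ratio of P7 to P1 (CPM + 5) over the measured genes of each list with at least 4 measured, in endothelial cells (circles) and the other kept cells (diamonds), with the counts called higher and lower at the right and the dashed line at the median of all genes, 0.11. Barrier transporters (0.85) and Wnt and Norrin genes (0.77) lay above the median of all genes, and immediate early genes (-0.98) below it in both kinds of cell.

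Cell cycle genes differed in part. Of 17 measured, Top2a, Cenpf, Ccnb1, Tpx2 and Mcm6 fell and 0 rose, with a median log2 difference of -0.61 against 0.22 in the other cells. Of all genes measured 3.0% fell and 5.87% rose. Endothelial cells with a UMI for 3 or more of 9 cell cycle genes numbered 26 of 166 at P1 (15.7%, 10.5 to 22.1) and 23 of 194 at P7 (11.9%, 7.67 to 17.3). Thinned to 2000 UMIs, which left out 13 and 20 shallower cells, the shares were 9.15% (5.09 to 14.9) and 6.90% (3.61 to 11.7), and the intervals overlap widely. The upper limit on genes removed 44 P1 and 18 P7 barcodes that met the endothelial rule, and with them the dividing shares were 27.1% and 17.1%.

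Endothelial cells also differed among themselves by their transporters. Cells with a UMI for Mfsd2a or Slco1a4, a split chosen after their values were seen, numbered 50 of 166 at P1 (30.1%, 23.3 to 37.7) and 109 of 194 at P7 (56.2%, 48.9 to 63.3). After thinning the shares were 11.8% (7.12 to 18.0) and 37.9% (30.7 to 45.6). In the other kept cells 2.20% and 7.66% had such a UMI. The number of cells with both genes was 10 at P1 and 42 at P7.

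Cells with a UMI for Mfsd2a or Slco1a4 had medians of 10111.5 UMIs at P1 and 10070 at P7, against 9198.5 and 6949 in the rest. Slc2a1, Gja4 and Cldn5, the last a selecting gene, were higher in them at both ages. Slc2a1 was 778 CPM in them and 345 in the rest at P1 (2.26-fold, 1.98 to 2.57), and 894 and 313 at P7 (2.86-fold, 2.47 to 3.31). The arterial connexin Gja4 was 3.24-fold (2.40 to 4.39) and 3.16-fold (2.36 to 4.30) higher. Cldn5 was 2.22-fold higher at P1 and 1.32-fold at P7. Plvap was 733 CPM in them and 1362 in the rest at P1, where 1 cell of the rest held 297 of 1796 UMIs and the rest had 1160 CPM without it, but at P7 the order turned, with 1487 and 1254 CPM. Rgcc turned in the same way, with 192 and 328 CPM at P1 and 882 and 463 CPM at P7. Without 1 cell of the rest with 123 Rgcc UMIs, the P1 values of Rgcc were 192 and 239 CPM. Lyve1, a lymphatic and venous marker, was 18.3 CPM in them and 126 in the rest at P1, or 78.9 in the rest without 1 cell that held 64 of its 166 UMIs, and 43.5 and 40.2 CPM at P7 (1.08-fold, 0.673 to 1.77).

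Arterial genes cut out a smaller subset, which is a range of counts and not a cell type. At least 2 of Gja4, Gja5, Hey1, Dll4, Bmx and Sema3g were found in 22 cells at P1 (13.3%) and 35 at P7 (18.0%), with overlapping intervals, against 0.135% and 0.161% of the other cells. The median cell of this subset had 16204.5 UMIs at P1 and 11833 at P7, against 8729 and 7038 in the rest. After thinning the shares were 3.27% (1.07 to 7.46) and 5.17% (2.39 to 9.59). Other arterial and Notch genes were mixed. Sox17 was 267 CPM in these cells and 174 in the rest at P1, and 480 and 230.0 at P7. Efnb2 (ephrin-B2) was 2.61-fold (1.85 to 3.63) and 1.65-fold (1.17 to 2.31) higher in them, and the receptor Notch1 200.9 and 106 CPM at P1 and 236 and 157 CPM at P7. Jag1 (1.70-fold, 0.874 to 3.12, and 1.03-fold, 0.647 to 1.60), Notch4 (0.914 and 1.07) and Hes1 (1.18 and 1.21) had intervals that include 1 at both ages. Unc5b, a netrin receptor of arteries, was 2.96-fold (1.78 to 4.85) higher at P1, where 1 cell held 14 of 28 UMIs and the value without it was 1.57-fold (0.793 to 2.90), and 1.94-fold (1.34 to 2.77) higher at P7. At least 2 venous genes were found in 43.4% and 43.3% of endothelial cells, and in 8.83% and 10.8% of the other kept cells. After thinning the endothelial shares were 9.15% and 8.62%, and thinned shares of the other cells were not computed.

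**Figure D5:**
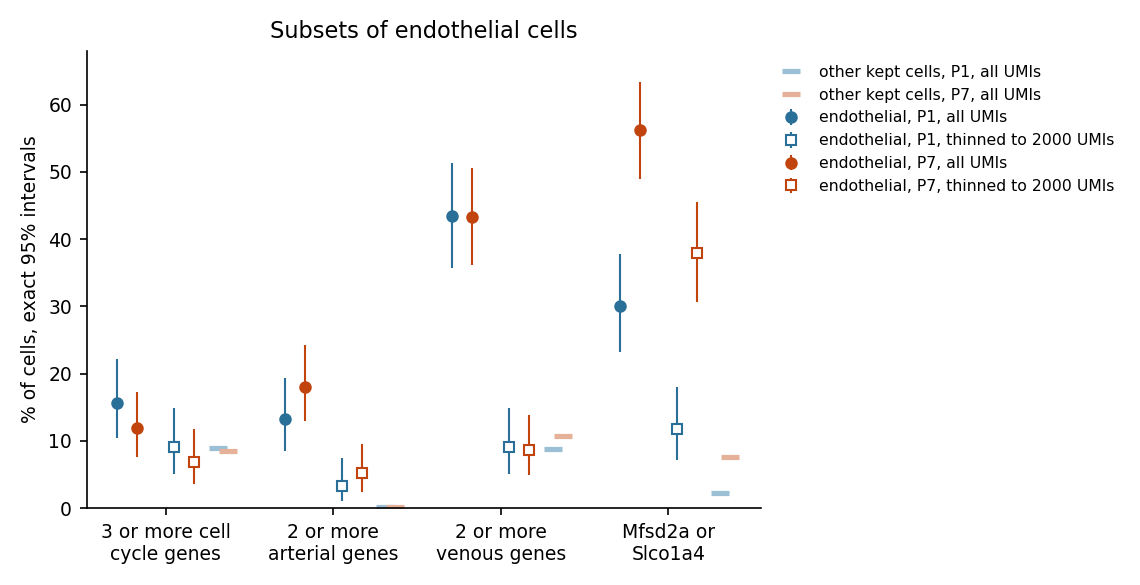
Percent of endothelial cells in each subset with exact 95% intervals, from all UMIs (filled) and after thinning to 2000 UMIs per cell (open), and of the other kept cells from all UMIs (bars), at P1 and P7. The share with Mfsd2a or Slco1a4 was 30.1% at P1 and 56.2% at P7, or 11.8% and 37.9% after thinning, while the other subsets have overlapping intervals.

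Several of the largest differences rested on 1 or a few cells. The MHC class II genes Cd74, RT1-Da, RT1-Db1 and RT1-Ba, which mark antigen-presenting cells, and Slpi, a protease inhibitor, had 252 of 253, 196 of 196, 164 of 164, 83 of 83 and 80 of 80 of their P7 UMIs in the same cell, which had 3 of the 6 selecting genes and was called a doublet. The 4 MHC genes are all the rises in the antigen presentation and interferon list, of 14 measured, and without the doubted cells Psmb9 was the 1 rise of 8. Otos (otospiralin), a fibrocyte protein, had 371 of 440 P7 UMIs in 1 doublet, and Gcg (glucagon) 279 of 351 in 1 cell. Fabp4, a fatty acid carrier of endothelium, had 194 UMIs in 6 P1 cells and 3 UMIs at P7, and Gal (galanin) had 95 of 107 P1 UMIs in 1 cell.

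All 6 measured pericyte and mural markers rose, with Acta2 (smooth muscle actin) in 1 P1 and 7 P7 cells, Rgs5 in 10 and 19 and Tagln in 7 and 8. Cells with 3 or more pericyte markers are among the doubted cells, so leaving those out removes most of these UMIs by construction, and none of the list then reached 50 UMIs. Mbp, a myelin protein gene, rose 12.5-fold (8.69 to 18.7) beside 4.31-fold in the other cells. At P7 it was found in 24.7% of endothelial cells against 31.7% of macrophages. Without the doubted cells, which include those with 3 or more glia markers, its difference was 4.96-fold, on fewer than 50 UMIs. Of all genes measured 5.87% rose. Of 5 glia markers measured 4 rose, of 7 mesenchyme markers 5, of 8 macrophage markers 1 and of 6 otic fibrocyte markers 2. The part of other cells' RNA in these rises was not tested.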

How the data were processed

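Each library's matrix was deposited as raw UMI counts per gene and barcode, made by the authors with Cell Ranger 3.1.0 on the rn6 build. The authors' Seurat 3.1.1 clusters were not used here. Kept cells had 501 to 4999 genes and under 25% of UMIs on Mt- genes, and members had a UMI for at least 3 of 6 genes. Counts were summed over members and divided by the sum. Genes with at least 50 UMIs over both libraries were compared as log2(CPM + 5), and 2-fold or more was called. With 1 library per age there is no test. Clopper-Pearson, Poisson and conditional binomial intervals (95%) cover counting error only. Scrublet (scanpy 1.11.5) marked doublets, which were kept and left out as an alternative. Python 3.11.15, numpy 2.4.6, scipy 1.17.1, pandas 2.3.3 and matplotlib 3.10.9 were used. The calls and intervals were tried on simulated Poisson sums, which hold no variation between cells, no doublets and no RNA of other cells. The simulation therefore cannot show how the intervals hold for these cells. The members and the 35 gene lists (392 genes, 17 not in the files) were chosen with earlier results of these data known. Named genes were the selecting genes, each list's called or otherwise most abundant genes, the 15 leading genes, and the 10 largest differences in each direction, alone and against the other cells. Other list genes were named for their role, after their values were seen. Alternatives changed the rule, cells, scaling, summing, minimum and pseudocount.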

Additional observations from a re-analysis of the deposited data

Results flagged for a closer look

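In 7 genes the log2 ratio of P7 to P1 was at least 1 in size in both kinds of cell and opposite in sign, a difference that was not tested. In endothelial cells it was -2.37 for Hba-a2.1 (the second entry of that symbol), -2.47 for Hba-a2 and -1.47 for Hbb, the haemoglobin chains, -1.29 for Alas2, the haem synthesis enzyme of red cells, -1.58 for LOC103694857 and -1.18 for LOC689064, loci without a gene name here, and -1.27 for Tnfrsf12a, the TWEAK receptor. In the other kept cells the values were 1.60, 1.12, 2.03, 1.16, 2.19, 2.24 and 1.19 in the same order. At P1 1 endothelial cell held 2908 of 8301 Hba-a2 UMIs and 746 of 1665 Hbb UMIs. LOC103694857 stood at 10668 and 3557 CPM in endothelial cells at P1 and P7, and LOC689064 at 3236 and 1426 CPM. Neither locus was counted in the haemoglobin share of UMIs given above. Tnfrsf12a stood at 29.2 and 9.19 CPM in endothelial cells and at 5.29 and 18.4 CPM in the other cells.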

How the results depend on the processing

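The endothelial share was 2.54% (P1) and 2.94% (P7) with at least 2 selecting genes, 1.05% and 1.21% when cells were thinned first, 1.60% at P1 with no upper limit on genes and 0.906% at P7 without cells carrying another class's markers. Its log2 ratio of 0.25 became -0.34 without those cells and -0.21 without all doubted cells, which left 0.947% and 0.819%. In both cases the cells were left out of the endothelial cells but not out of the kept cells. The dividing share at P1 was 27.1% with no upper limit on genes. The genes higher at P7, 385 of 6558 measured, became 243 of 5208 without cells carrying another class's markers. They became 202 of 4588 without the doubted cells and 222 of 4485 with at least 100 UMIs. Of the same 6558 they became 609 with no pseudocount, 129 with 20 CPM and 112 after subtracting the other cells' change. The genes lower, 197, became 302, 70 and 94 under the last 3. Of the 385 genes, 144 stayed called without the doubted cells, where only 4588 genes were measured. Single genes turned sign as follows. With at least 4 selecting genes Cd74 was -0.13 and Slpi -0.15. Without cells carrying another class's markers, pericyte genes among them, Cd74 was -0.0379, Rgs5 -0.18, Slpi -0.17 and Tagln -0.42. Under 10% mitochondrial UMIs Lyz2 was -0.99. Without dividing cells, which were chosen on cell cycle genes so that most of this signal is removed by construction, Ccnb1 was 0.096, Cenpf 0.079 and Tpx2 0.12. Without the doubted cells, where cells rich in haemoglobin or carrying pericyte markers are left out by construction, Hba-a2.1 was 1.31, Hbb 0.70, LOC103694857 1.77, LOC689064 0.54, Rgs5 -0.27 and Tagln -0.25. After subtracting the other cells' change Angptl4 was -0.52, Apoe -0.11, Car3 -0.17, Egr1 1.04, Fos 0.57, Jag1 -0.061, Plagl1 0.58, Pmp22 -0.17 and Rgcc -0.93. Otherwise the cause was not tested. Over all alternatives, 1132 values of named genes lay within the counting interval of the reported one, 433 lay outside it with the same or no called direction and 25 turned sign. Leaving out the doubted cells, or each gene's 3 highest cells (481 higher, 225 lower), or the highest cell of a subset, was chosen after seeing the data. No paired analysis was possible because each age has 1 library. Depth limits low genes: 3 UMIs are 1.56 CPM at P1 and 1.62 at P7.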

Other observations

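Flow and vascular tone genes had 0 of 12 called, with a median log2 difference of 0.04 in endothelial cells and 0.53 in the other kept cells. Hypoxia and glycolysis genes had 0 of 10 called, with medians of -0.14 and 0.17, and the angiopoietin and Tie pathway 0 of 4. Of 71 ribosomal protein genes 3 fell and 0 rose. Among all genes measured, 3.0% fell and 5.87% rose. Lyve1, the 1 lymphatic gene called of 3 measured, stood at 92.3 CPM at P1 and 42.2 at P7, where 1 P1 cell held 64 of 177 UMIs. Its log2 difference of -1.04 was -0.71 without the 3 highest cells of each library and -0.87 with at least 4 selecting genes, both short of a call, and -1.62 without the doubted cells.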
